A study of Gallus gallus with 26 samples.

Results

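Among 8758 genes measured in the complexus muscle of broiler chickens (Gallus gallus) around hatching, 114 had day means at least 2-fold higher on each of embryonic days 19, 20 and 21 (E19, E20 and E21) than on E15 and E17, and 31 of them also met conditions on their level and on how it was kept. These 31 genes were chosen on the deposited normalised counts, which are raw counts divided by one size factor per library. The lowest of the E19, E20 and E21 day means had to be at least 2 times the highest of the E15 and E17 means, with 0.5 added to each mean, and the highest day mean had to be at least 20. The mean at E21 had to lie above that at E20 divided by 1.5 and above that at E19 divided by 2. The lower of the E20 and E21 means also had to stay below 3 times the highest mean up to E19. This leaves out genes at least 3-fold higher on both E20 and E21 than on every earlier day. Genes with a largest step after E19 could still pass. Because the day means of all libraries chose the members, their higher level from E19 onwards is a description and not a finding.

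RNA of frozen complexus was measured by MARS-Seq, per the series description, with 6 libraries each for E15 and E17, 5 each for E19 and E20, and 4 for E21. Day means below are given in the order of these days as mean ± SD, with n = 6, 6, 5, 5 and 4 libraries. All libraries came from broiler chickens of one labelled batch, no treatment other than age is labelled, and the series description calls the last 2 days hatch and chick placement. Library totals ranged from 580768 to 2208872 counts. The labels do not say whether libraries came from separate birds or from pools, and the p-values therefore reflect no more than the variation among these libraries. The genes carry Ensembl identifiers with no symbols beside them, and 0 of 8758 identifiers matched a table of 25635 RefSeq genes, so the labelled tissue could not be checked against marker genes. In RNA from whole muscle, a change in the share of a cell type and a change in the RNA per cell cannot be told apart.

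The complexus, also called the hatching muscle, runs along the back of the neck and drives the movements with which the embryo breaks the shell. It enlarges in late incubation and regresses after hatching. Around that time the embryo changes from gas exchange across the chorioallantoic membrane to breathing with its lungs, and from yolk towards feed. Skeletal muscle of this age also replaces embryonic isoforms of its contractile proteins and builds up its membranes for calcium release.

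The members ranged from genes with few counts to genes with many. Their highest day mean lay between 22.1 and 6656 normalised counts, and 14 members reached at least 100 while 17 stayed below it. They are referred to by rank, from 1 for the highest mean of the 5 day means to 31 for the lowest. The order is one of counts and is not read as an order of transcript levels. Identifiers are given for the member with the highest mean and the member with the largest ratio, ENSGALG00000010614.4 (rank 1) and ENSGALG00000007114.6 (rank 2).

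None of the 31 genes was without counts before E19. No member lacked counts in all E15 libraries, and the fewest counts of any member were 9 over the 6 E15 libraries and 17 over the 6 E17 libraries. Of the members, 27 had at least 1 count in every E15 and E17 library and 26 had one in all 26 libraries. At E15, 19 members averaged at least 10 normalised counts and 12 averaged less. The label of genes switched on from E19 therefore does not describe them as a set in these data. They had counts earlier and were counted at a higher level from E19. No background level of counts was estimated, so for members with few early counts it is uncertain whether these counts stand for transcripts.

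ENSGALG00000010614.4 was the member with the most counts. It had 354, 564, 416, 418, 575 and 527 normalised counts in the 6 E15 libraries and 1546, 1618, 1656, 2045, 1211 and 1709 in the 6 E17 libraries. In the 5 E19 libraries it stood at 3603, 3554, 3973, 4475 and 3962. These 3 days did not overlap, and each later day lay wholly above the one before. At E20 the libraries held 5337, 5704, 6670.2, 8700.2 and 6866 normalised counts, and at E21 they held 4559, 4492, 5298 and 4581. On this scale all E21 libraries lay below all E20 libraries and above all E19 libraries. With raw counts divided by library totals, the E20 and E21 libraries of this gene overlapped. The day means were 476 ± 91.7, 1631 ± 269, 3914 ± 369.8, 6656 ± 1310.35 and 4733 ± 379.

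ENSGALG00000007114.6 had the largest ratio of late to early means, 7.62. It had 106, 58.7, 99.7, 119.9, 111 and 83.4 normalised counts in the E15 libraries and 197, 171, 214, 199, 312 and 179 in the E17 libraries. In the E19 libraries it stood at 2546, 2074, 1212, 1361 and 901. The lowest E19 library was thus far above the highest E17 library, but the E19 libraries themselves were spread over a wider range than those of any earlier day. At E20 it had 3253, 4706, 2708, 3069 and 3264 normalised counts, and at E21 it had 2616, 3648, 4209 and 3975. These last 2 days overlapped widely. The day means were 96.4 ± 22.2, 212 ± 51.6, 1619 ± 673, 3400.05 ± 764 and 3612 ± 703.

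**Figure D1:**
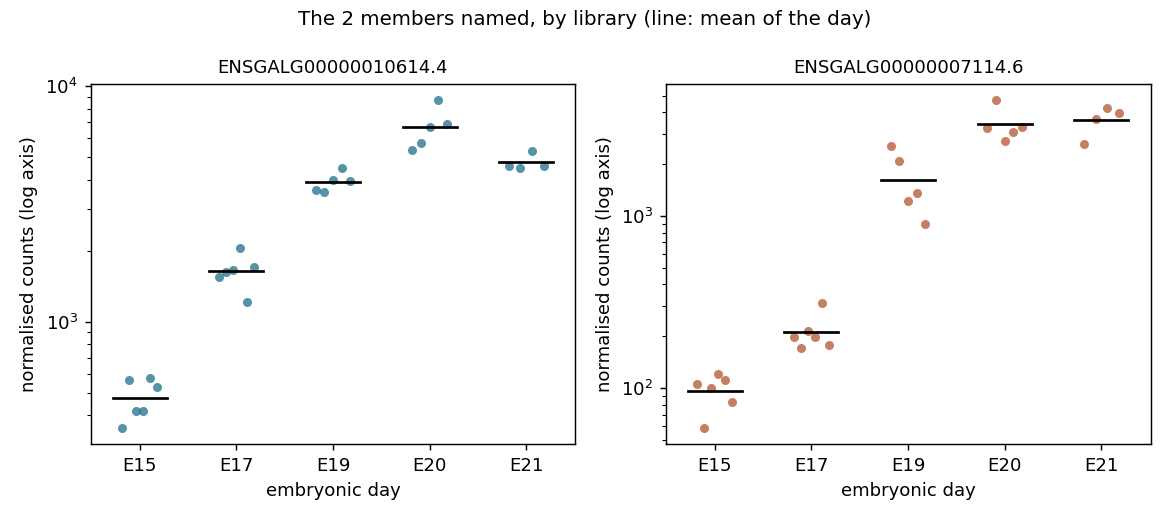
Normalised counts (log axis) of the 2 named members in each of the 26 libraries (points) by embryonic day, with the mean of each day as a line. ENSGALG00000010614.4 has its highest mean at E20 (6656) and is lower at E21 (4733), whereas ENSGALG00000007114.6 has its largest step between E17 (212) and E19 (1619).

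Ranks 3, 5, 8 and 10 also had their largest step between E17 and E19. Rank 3 had day means of 48.2 ± 9.79, 142 ± 37.8, 695 ± 229, 1080.0 ± 161 and 909.8 ± 98.5 normalised counts. Its E19 libraries held between 401 and 1022 and its E17 libraries between 105 and 194. Rank 8 had day means of 13.1 ± 5.52, 36.1 ± 10.5, 212 ± 81.2, 432 ± 109.8 and 501 ± 68.5. In both genes every E19 library lay above every E15 and E17 library.

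Rank 4 and rank 7 reached the rule's 2-fold level at E19 but took their largest step afterwards. Rank 4 had day means of 156 ± 30.4, 175 ± 40.7, 415 ± 154, 1025 ± 198 and 1093 ± 147 normalised counts. Rank 7 had day means of 46.04 ± 7.91, 65.7 ± 10.9, 149 ± 38.1, 538 ± 100.4 and 428 ± 172. In rank 7 the 4 E21 libraries held 486, 255, 643 and 331, a wide spread within one day.

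Across all 31 members the step from E17 to E19 was the largest of the 4 steps between sampled days for 25 genes, measured as the log2 ratio of day means. It was the step from E19 to E20 for 3 genes, from E20 to E21 for 2 genes, and from E15 to E17 for 1 gene, ENSGALG00000010614.4. The sampled days are unequally spaced, with 2 days between E15, E17 and E19 and 1 day afterwards. The rule required E19 to be at least 2 times E17 in every member and limited joint jumps at E20 and E21. These counts therefore follow in part from the rule and are descriptions. They were made on the deposited normalised counts. With raw counts divided by library totals, all genes tested had median log2 changes of -0.27 from E17 to E19 and 0.35 from E19 to E20. The median ratio of means was 1.45 from E15 to E17, 2.69 from E17 to E19, 1.55 from E19 to E20 and 0.983 from E20 to E21. By E19 the members had covered a median of 73.1% of their log2 rise from E15 to E21, with single genes between 39.2% and 116%. The highest day mean fell on E20 for 15 members, on E21 for 15 and on E19 for 1.

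**Figure D2:**
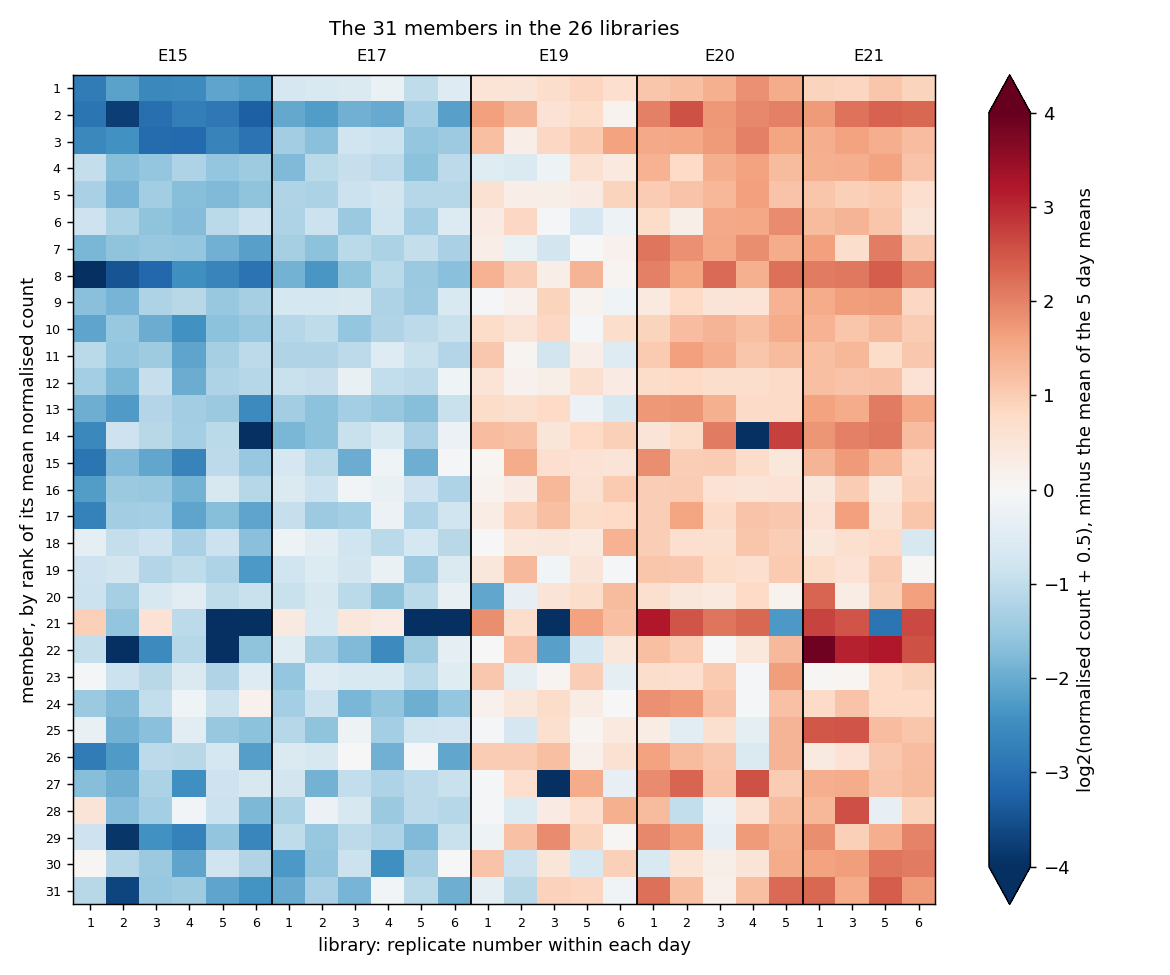
Each of the 31 members (rows, by rank of mean normalised count) in the 26 libraries (columns, by day and replicate number). Colour gives log2 of the normalised count plus 0.5, relative to the mean of the gene's 5 day means. For 25 of the 31 members the largest step of the day means lies between E17 and E19. The rule requires this step to be at least 2-fold. Rank 21 has near-empty cells on every day.

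The ratio that chose the members ran from 2.05 to 7.62 with a median of 2.52, and 23 of the 31 genes lay under 3. Just inside the threshold, rank 24 had a ratio of 2.05 with day means of 8.75, 4.87, 18.4, 36.4 and 27.1 normalised counts from E15 to E21, and rank 25 had a ratio of 2.07 with means of 5.41, 6.27, 13.5, 16.9 and 49.7. Just outside it, a gene with means of 62.9, 112.1, 224, 481 and 597 had a ratio of 1.99, as did a gene with means of 742, 1384, 2955, 2751 and 4039. In all, 24 genes were left out only because E21 fell too far below E20, 6 only because of a larger jump after E19, and 40 only for their low level. The list is thus a slice of a continuous range of courses.

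The list depended on the scale of the counts. Totals of the normalised counts were 917465 to 1003954 per library at E15, 1285463 to 1440350 at E19 and 794400 to 873146 at E21. They were thus highest at E19 on the deposited scale. With raw counts divided by library totals, 28 genes passed the rule and 16 of them were among the 31 members. Of the other 15 members, 13 failed the 2-fold ratio and 2 failed another condition. The median ratio of the members was 2.05 on that scale, with a range from 1.45 to 6.43. ENSGALG00000007114.6 had a ratio of 6.43 and ENSGALG00000010614.4 one of 2.02 on library totals. With TMM factors, which scale each library by the trimmed mean of its log ratios to a reference library, all 31 members passed.

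**Figure D3:**
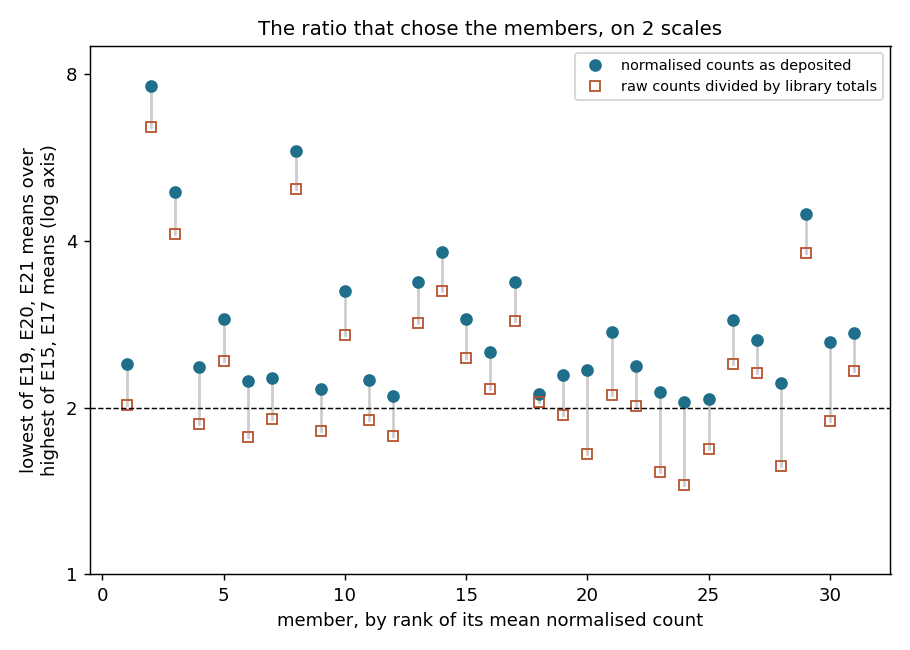
The ratio of the lowest E19, E20 or E21 mean to the highest E15 or E17 mean (log axis) of each member, on the deposited normalised counts (circles) and on raw counts divided by library totals (squares). The dashed line marks the threshold of 2; on library totals 13 members lie below it, whereas ranks 2, 3 and 8 stay above 4.

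The E19, E20 and E21 libraries of 16 members lay wholly above their E15 and E17 libraries, as they did for 1.3% of the 5901 genes tested. Counting the E19 libraries alone, 19 members lay wholly above E15 and E17, against 4.29% of all genes tested. Both counts follow from the rule in part and are no evidence about the members. The 12 members whose E19 libraries overlapped with earlier ones included ranks 6 and 11 and otherwise genes of rank 20 or lower in abundance. Rank 6 held between 128 and 365 normalised counts at E19 and between 72.8 and 138 at E17.

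All 31 members passed the filter on low counts and were tested with edgeR's quasi-likelihood test, with Benjamini-Hochberg adjustment over 5901 genes and an adjusted p under 0.05 as the threshold. The filter needs enough counts in as many libraries as the smallest day has, so a gene that is low at E15 could pass through the later days. From E17 to E19, where the rule fixed the direction, 27 members were called higher and none lower, against 9.88% and 7.35% of all genes tested. The 4 members that did not pass were ranks 21, 22, 25 and 28. Their log2 fold changes were 1.38 (SE 0.84), 1.496 (SE 0.55), 1.07 (SE 0.43) and 1.34 (SE 0.52), which lie within the range of the other members. From E15 to E21 all 31 members were called higher and none lower, against 27.3% and 28.6% of all genes tested. Their log2 fold changes ran from 1.24 to 5.51 with a median of 2.85. The rule fixed this direction too, so both counts are descriptions.

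The rule did not set which of the E15 and E17 means was higher, but it used both and bounds the larger of them. Between these days 10 members rose, none fell and 21 did not pass the test (edgeR), against 9.08% higher and 8.66% lower among all genes tested. The median log2 fold change of the members was 0.48, and that of all genes tested was -0.05. Higher values at E17 were found for 26 members and lower values for 5. The comparison describes these 31 genes, which were chosen on means that include E15 and E17. The counts and p-values for this step are therefore no independent evidence of a rise.

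ENSGALG00000010614.4 rose most from E15 to E17, with a log2 fold change of 1.76 (SE 0.13, 95% interval 1.497 to 2.02, adjusted p = 7.09e-11 in edgeR). Every E17 library was above every E15 library. Rank 3 rose by 1.56 on the log2 scale (SE 0.19, adjusted p = 8.39e-07 in edgeR) and rank 8 by 1.36 (SE 0.28, adjusted p = 0.00086 in edgeR). ENSGALG00000007114.6 rose by 1.11 (SE 0.21, 95% interval 0.69 to 1.54, adjusted p = 0.000342 in edgeR), also without overlap between the 2 days. In 5 members all E17 libraries lay above all E15 libraries, against 5.61% of all genes tested.

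The other 6 genes that rose between E15 and E17 were ranks 5, 10, 12, 15, 16 and 17, with log2 fold changes between 0.52 and 1.03. Each of the 10 genes belongs to cluster 4 of the authors' deposited table. That cluster was made from the same libraries and holds 13 of the members, so this is a description. Ranks 4, 6 and 7 are among the members that did not pass. Rank 4 had a log2 fold change of 0.16 (95% interval -0.21 to 0.53), rank 6 one of 0.17 (95% interval -0.34 to 0.67) and rank 7 one of 0.48 (95% interval 0.06 to 0.89), with an adjusted p of 0.101 for rank 7 in edgeR. Rank 24 had the lowest value, -0.86 (95% interval -1.57 to -0.15), with an adjusted p of 0.0831 in edgeR. Without E15 replicate 4 only 6 members were called higher, and without E15 replicate 2, 9 were called higher and 1 lower. On library totals, 5 were called higher and 1, rank 24, lower. All genes tested had a median log2 change of -0.29 on that scale, and these calls are to be read relative to it. The share of all genes called there is not given.

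**Figure D4:**
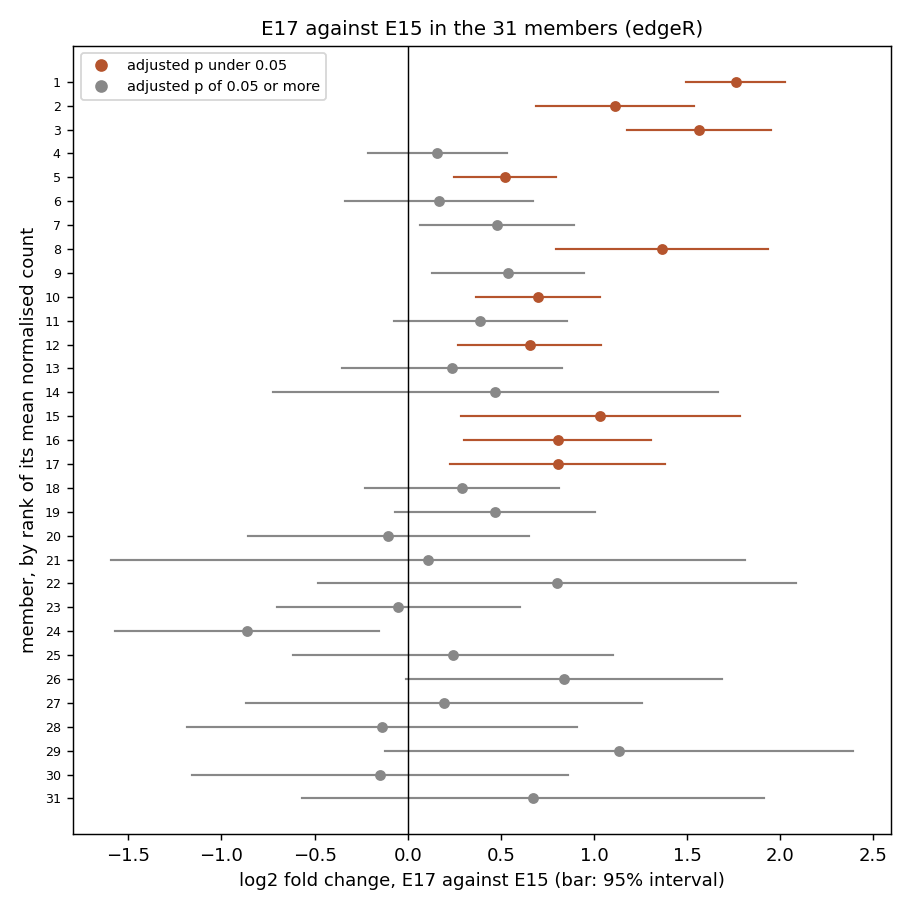
Log2 fold change from E15 to E17 of each member (points; bars give the 95% interval) from edgeR, by rank of mean normalised count. The 10 members with an adjusted p under 0.05 all lie above 0, and the intervals widen towards the members with few counts.

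After E19 the members' means mostly went on upwards to E20 and then divided. From E19 to E20, 30 members had a higher mean and 1 a slightly lower one, and 14 were called higher and none lower in edgeR, against 13.9% and 13.6% of all genes tested. The ratio of means from E19 to E20 lay between 0.998 and 3.60 and was above 1.5 in 16 members. From E20 to E21, 15 members had a higher and 16 a lower mean. Here 5 were called higher and 1 lower, against 5.74% and 8.59% of all genes tested. The rule bounds both steps, so these counts are descriptions.

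The members called higher at E21 than at E20 were ranks 9, 20, 22, 25 and 30. Rank 22 stood out among them, with 1.63, 3.16, 8.21, 14.2 and 76.5 normalised counts as day means. Its E21 libraries held 118, 67.5, 73.5 and 47.03 normalised counts, all above its highest E20 library of 19.1. Rank 9, with more counts, went from a mean of 271 ± 83.9 (SD, n = 5) to one of 439.7 ± 109 (SD, n = 4). Without E21 replicate 1, 3 members were called higher and none lower, and on library totals 9 were called higher and none lower. On library totals all genes tested shifted upwards from E20 to E21, with a median log2 change of 0.37. The share of all genes called on that scale is not given here, so the 9 calls are not read as a result about the members. The 1 member called lower was ENSGALG00000010614.4, with a log2 fold change of -0.49 (SE 0.15). That call was lost without E20 replicate 4 (-0.38), without E21 replicates 1, 3 or 6 in turn (-0.48, -0.46 and -0.48) and with the replicate number as a block (-0.43). It was also lost on library totals, where the log2 fold change was -0.12 and the median of all genes tested was 0.37. The value is to be read relative to that shift.

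Rank 16 was the 1 member with its highest mean at E19, and its means of the last 3 days lay close together. Its day means were 13.6 ± 5.69, 23.7 ± 6.85, 61.8 ± 21.7, 61.6 ± 10.6 and 60.6 ± 12.8 normalised counts. Its log2 fold change was 0.00 from E19 to E20 (95% interval -0.45 to 0.45) and -0.02 from E20 to E21 (95% interval -0.50 to 0.46). Differences of up to about these bounds could therefore not be seen.

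The authors' deposited table places 13 members in cluster 4 and 10 in cluster 5 of the clusters it attributes to DESeq2, which hold 163 and 294 genes. The remaining 8 members are in none of these clusters, and their highest day means lie between 22.1 and 58.0 normalised counts. Both clusters were made from the same libraries. Members of cluster 4 had a median log2 fold change of 0.81 from E15 to E17, 1.64 from E17 to E19 and 0.54 from E19 to E20. Members of cluster 5 had medians of 0.24, 1.201 and 1.07 for the same steps. Their last 2 medians thus lay closer together than those of cluster 4, with the step from E17 to E19 still the larger. In the clusters attributed to maSigPro in the authors' deposited table, 12 members are in cluster 3, 7 in cluster 2 and 12 in none.

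Together the 31 genes held a small and growing part of the counts. By day, from E15 onwards, their share was 0.141% ± 0.00457, 0.258% ± 0.0283, 0.652% ± 0.0552, 1.53% ± 0.124 and 1.76% ± 0.0828. Without ranks 1 and 2 the shares were 0.0816% ± 0.00651, 0.0986% ± 0.0100031, 0.248% ± 0.0237, 0.5896% ± 0.0547 and 0.7496% ± 0.0887. Shares of library totals do not depend on the size factors. The 2 genes with the most counts thus took more counts than all other members together on every day but E15. The rise of the share from E15 and E17 to the later days follows in large part from the rule. The rule does not fix the direction of the other steps, and the shares of all days are a description. From E20 to E21, normalised totals per library went from between 1049762 and 1109999 to between 794400 and 873146. On normalised counts 16 members had a lower and 15 a higher mean at E21 than at E20. The growth from E20 to E21 is therefore one of shares.

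**Figure D5:**
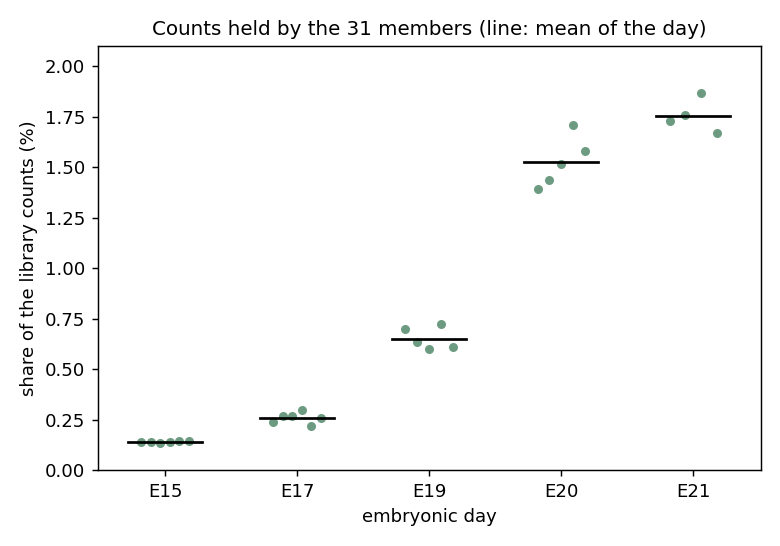
Share of each library's counts (percent) that fell on the 31 members, by embryonic day, with points for libraries and lines for the mean of the day. The share goes from 0.141% at E15 to 1.76% at E21; libraries overlap between E20 and E21 and on no other pair of days.

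The spread between libraries of one day had its largest median at E19 for the well-counted members, though not in each of them. The rule used the day means, and no spread of other genes is set beside these values. They describe the members only. The coefficient of variation (SD as a percentage of the mean) of the 11 members with a mean of at least 100 normalised counts had medians of 20.3%, 22.6%, 32.9%, 19.3% and 13.7% from E15 to E21. It was largest at E19 in ranks 2, 3, 4, 5, 9 and 11, and on another day in ranks 1, 6, 7, 8 and 10. Rank 1 had 9.45% at E19 and 19.7% at E20. For the 20 members under 100 the medians were 53.5%, 33.9%, 42.7%, 42.7% and 29.6%. Library totals at E19 lay between 580768 and 1106816 counts and their part in this spread was not tested. No single E19 library was high throughout: E19 replicate 3 was the highest of its day for 10 members and the lowest for 8, and E19 replicate 1 was the highest for 8 and the lowest for 6.

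Rank 21 differed from all other members in how it was spread over libraries. It had at most 1 raw count in 7 libraries, which were E15 replicates 5 and 6, E17 replicates 5 and 6, E19 replicate 3, E20 replicate 5 and E21 replicate 5. In the other 19 libraries it had between 3 and 170 counts. The 7 libraries had totals between 665356 and 1374996 counts, and a count of 0 allows up to 3 counts. At E21 it had 66.0, 58.8, 0.85 and 63.2 normalised counts, and at E20 it had 93.7, 58.0, 44.3, 49.8 and 1.6. No other listed gene had at most 1 count in exactly these libraries and more in all others. That search would miss genes with few counts or with a nearly equal pattern, so it does not show the pattern to be unique. Its day means of 6.94, 7.51, 21.4, 49.5 and 47.2 normalised counts therefore average over near-empty and filled libraries of each day. Rank 14 had 1 count in each of E15 replicate 6 and E20 replicate 4 and between 4 and 283 in the other 24 libraries.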

How the data were processed

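The members and gene lists were chosen with earlier results of these data known. STAR 2.7.10a, HTSeq 2.0.2 and DESeq2 were used, per the submitters' processing notes. The sources used here do not give the genome build, annotation, strand setting or use of molecular identifiers, so counts of overlapping genes or close copies are uncertain. The authors deposited raw counts per gene and library, and, per the file headers, normalised counts, a signal equal to raw counts over a size factor that is constant within a library. The authors also deposited log2 fold changes with adjusted p-values and other values, namely cluster numbers.

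The rule was applied to the deposited normalised counts. Raw counts were tested with edgeR 4.0.16 in R 4.3.3 (TMM, genes kept by filterByExpr at a count of 10 and a total of 15, 5901 in all). All 26 libraries entered one quasi-likelihood fit with day as the only term. The SE is the absolute log2 fold change divided by the square root of F. The script was tested on simulated data. Alternatives were other scalings, no filter, DESeq2 1.42.0, fits of 2 days, a replicate block, each library left out, and changed settings of the rule. Library totals ranged from 580768 to 2208872 counts, and floors and intervals of counts cover counting error only. Chi-square statistics per degree of freedom of 56 replicate pairs lay between 2.76 and 11.5, so every library counted as 1 sample. The rule for naming genes took the member with the highest mean and the one with the largest ratio, since identifiers have no names. Lists and markers by symbol are not analysed here.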

Additional observations from a re-analysis of the deposited data

Results flagged for a closer look

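Within each day, the highest and the lowest library of every member and of the members' share of counts were compared with the nearest other library. A gap above Dixon's critical value was found in 11 of 160 groups of libraries, and chance gives about 1 in 20. ENSGALG00000010614.4 had 5298 normalised counts in E21 replicate 5, against 4492 to 4581 in the others. ENSGALG00000007114.6 had 312 in E17 replicate 5, against 171 to 214, and 4706 in E20 replicate 2, against 2708 to 3264. Rank 9 had 296 in E19 replicate 3, against 142 to 179. Rank 12 had 80.2 in E21 replicate 6, against 118.8 to 123.8. Rank 13 had 20.9 in E17 replicate 6, against 11.8 to 14.9. Rank 15 had 113 in E20 replicate 1, against 43.1 to 63.5. Rank 18 had 81.5 in E19 replicate 6, against 31.1 to 42.1. Rank 21 had 0.85 in E21 replicate 5, from 1 raw count, against 58.8 to 66.0. Rank 24 had 32.5 in E21 replicate 3, against 24.8 to 25.6. Rank 31 had 5.34 in E17 replicate 4, from 6 raw counts, against 1.06 to 2.52.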

How the results depend on the processing

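The rule gave 31 members, and 47 with a minimum level of 10 in place of 20. The other settings of the rule gave between 23 and 33, and leaving out each library gave between 28 and 34, with at least 27 of the 31 among them. Over all 26 of these, 16 members passed every time. From E15 to E17, 10 members were called, and 6 on library totals (5 higher, 1 lower). Leaving out a library gave between 6 and 11, with 9 higher and 1 lower without E15 replicate 2. Of the 10 members called in the main fit, 6 were called in every leave-one-out fit and 5 under all 18 alternatives. From E20 to E21, 6 members were called, 3 with the replicate block, and between 3 and 5 when a library was left out. The counts from E17 to E19 lay between 23 and 29, those from E19 to E20 between 13 and 20, and all 31 were called from E15 to E21 under every alternative. On library totals all genes tested had a median of -0.29 (log2) at E17 against E15, -0.27 at E19 against E17, 0.35 at E20 against E19 and 0.37 at E21 against E20, and the members' changes are to be read relative to these shifts. Same-numbered libraries of different days did not deviate together over all genes tested. The correlations of 45 pairs lay between -0.12 and 0.07, and 0 of 26 libraries correlated best with its own number. Pairing by replicate number was thus not seen at this level, which does not exclude it for single genes. The causes of these changes were not tested. Depth limits members with few counts.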
